A study of Mus musculus with 3 samples.

Results

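A set of 10 genes of Toll-like receptor signalling was followed through the immune cells of the juvenile mouse heart: 7 receptors (Tlr1, Tlr2, Tlr3, Tlr4, Tlr7, Tlr8 and Tlr13), the lipopolysaccharide co-receptors Cd14 and Ly96, and the adaptor Myd88. All 10 genes were chosen by name, and all 10 had UMIs (unique molecular identifiers, each marking 1 captured RNA molecule) in each of 3 single-cell libraries. They were read in 2351 cells of P10-sham_vehicle, 3453 cells of P10-MI_vehicle and 4744 cells of P10-MI_SB225002. The mice were C57BL/6 pups operated on at postnatal day 10 (P10), by tying off the left coronary artery (myocardial infarction, MI) or by the same operation without ligation (sham), and the hearts were taken 3 days later. The sham mice and 1 group of MI mice received vehicle, and the other MI group received SB225002, an antagonist of the chemokine receptor CXCR2. All groups share the age, the day of surgery and the sort of living CD45+F4/80+ cells from the infarct and border zones. Each library holds tissue pooled from several hearts of pups whose sex was not determined, and there is 1 library per group, so that condition and library cannot be told apart and no test across groups was made.

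Toll-like receptors are membrane proteins that recognise microbial molecules and, in injured tissue, molecules released by damaged cells or matrix. Some sit at the cell surface (Tlr1, Tlr2, Tlr4) and bind lipids or lipopeptides, while others (Tlr3, Tlr7, Tlr8, Tlr13) sit in endosomes and bind nucleic acids. Most of them signal through Myd88 to NF-kB, whereas Tlr3 signals through Ticam1 (TRIF) and Tlr4 uses both routes. In heart muscle, cardiac macrophages, monocytes and neutrophils are known carriers of these receptors, and signalling through Tlr2, Tlr4 and Myd88 has long been studied in infarction.

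Levels are given as CPM, the UMIs of a gene per 1000000 UMIs of all genes in the summed cells of a type, which compares cell types and libraries for 1 gene but does not rank genes against each other. The 3 libraries had a median of 8521, 6400 and 5654 UMIs per cell. Each interval is a 95% interval for counting error and leaves out the spread between cells, animals and libraries. Cell types were gated by marker genes, none of which is among the 10. The C1q+ gate (C1qa, C1qb, C1qc) held 2036 sham, 2422 MI vehicle and 3202 MI SB225002 cells, and 82.4% to 92.3% of them had a UMI of Adgre1, which encodes F4/80. Ly6c-high monocytes, defined by Ly6c2, Ccr2, Plac8, Chil3 and F10, numbered 16, 269 and 412 cells, and Adgre1 was detected in 43.8% to 57.3% of them. Neutrophils numbered 19, 68 and 146 cells. Fibroblasts (71, 207 and 150 cells) and endothelial cells (37, 64 and 181 cells) had a UMI of Ptprc, which encodes CD45, in at most 10.9% of cells, and of Adgre1 in at most 7.04%; whether they carried the proteins of the sort was not measured here. The groups of 16 and 19 sham cells lie under the 20 cells set for a level, and their values are given with their counts. Between 786 and 1355 barcodes of kept cells occurred in both of 2 libraries. Cells with the same barcode fell in the same gate in 51.4% to 61.8% of cases, where the makeup of the libraries alone gives 53.2% to 61.7%.

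Within C1q+ macrophages, the level of each of the 10 genes stayed within 1.5-fold between sham and MI and between the treated and untreated infarct. By cell type, Tlr7 and Tlr8 were highest in C1q+ macrophages, Myd88 in Ly6c-high monocytes and Tlr3 in endothelial cells, among the 6 types in the plot of CPM by cell type.

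**Figure D1:**
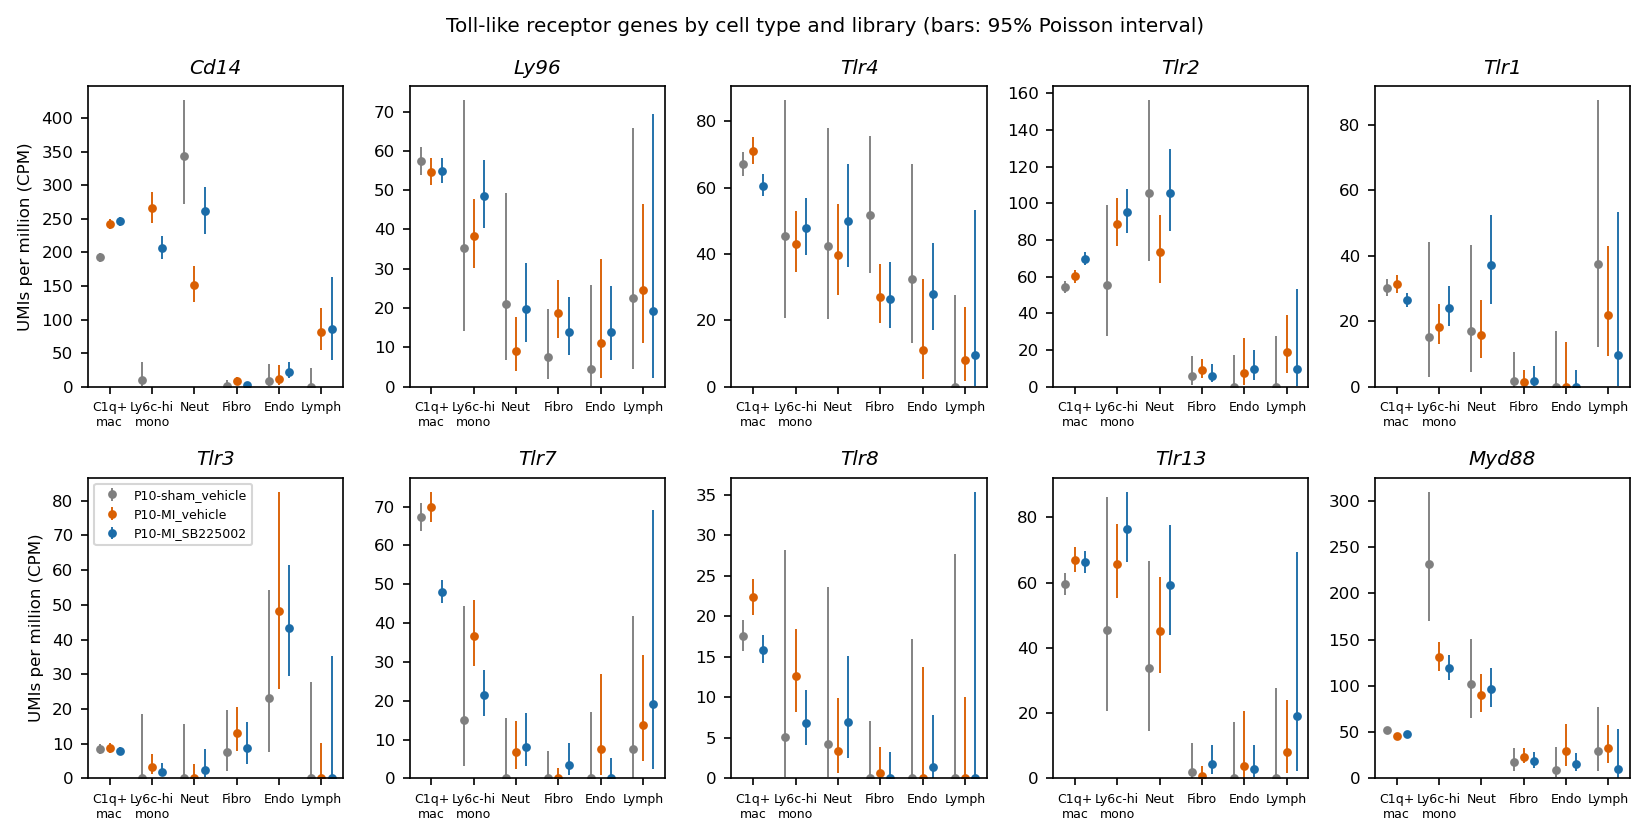
Each panel plots 1 gene in CPM (linear axis from 0) for 6 cell types, with 1 point per library and bars for the 95% Poisson interval. Myd88 stood at 232, 131 and 119 CPM in Ly6c-high monocytes and at 45.5 to 51.7 CPM in C1q+ macrophages, and Tlr7 was at 48.1 to 69.8 CPM in C1q+ macrophages and at most 8.12 CPM in neutrophils.

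Cd14 is a lipid-anchored surface protein that hands lipopolysaccharide to the Tlr4 complex. In C1q+ macrophages it was at 193 CPM in P10-sham_vehicle (interval 186 to 199), 242 CPM in P10-MI_vehicle (235 to 249) and 246 CPM in P10-MI_SB225002 (240 to 253), from 3647, 4299 and 5354 UMIs. Both infarct libraries thus stood above the sham library, by 0.33 on the log2 scale for MI over sham (0.26 to 0.39), and the 2 infarct libraries differed by 0.03 (-0.03 to 0.09). Under 11 other settings of the processing, the ratio of MI over sham ran from 0.08 to 0.38. A UMI of Cd14 was found in 64.9%, 61.6% and 58.6% of these cells, and, after every cell was thinned to 1000 UMIs, in 16.9%, 18.8% and 17.2%. In lymphocytes, which are not known for Cd14, the thinned share was 0%, 4.48% and 2.56%, from 22, 67 and 39 cells.

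Within the C1q+ gate, Cd14 differed between subsets. Lyve1+ resident macrophages (markers Lyve1, Folr2, Timd4, Cd163, Cbr2) had 148, 213 and 194 CPM, and the C1q+ cells outside the named subsets had 246, 278 and 243 CPM. The resident cells were the lower in each of the 3 libraries, by 0.73, 0.38 and 0.32 on the log2 scale, and each interval left out 0. Lipid-associated macrophages (Spp1, Gpnmb, Fabp5) were at 324 CPM in P10-MI_vehicle and 314 CPM in P10-MI_SB225002, above the resident cells of the same library by 0.61 (0.47 to 0.74) and 0.69 (0.56 to 0.82). Their sham counterpart is 10 cells with 40 UMIs of Cd14.

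A wide gap in Cd14 between the infarct libraries lay in Arg1+ C1q+ macrophages (Arg1, Prg4, Serpinb2), a gate that overlaps the other subsets. There, Cd14 was at 730 CPM in the 87 cells of P10-MI_vehicle (673 to 791) and at 264 CPM in the 430 cells of P10-MI_SB225002 (247 to 281), a log2 ratio of -1.47 (-1.62 to -1.32). The share of these cells with a Cd14 UMI was 75.9% and 63.7%. Tlr2 was also lower there in the treated library, at 114 against 75.2 CPM (log2 ratio -0.60, -0.94 to -0.24), and Ly96 was at 54.4 against 59.5 CPM.

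Cells that passed no gate had 710 CPM in 111 cells of P10-MI_vehicle and 453 CPM of Cd14 in 257 cells of P10-MI_SB225002. These cells are not 1 kind in both libraries. Against C1q+ macrophages, they were led by Stfa3, AA467197, Saa3 and Arg1 in P10-MI_vehicle and by Gpnmb, H2-Eb1 and Spp1 in P10-MI_SB225002, and the part of this makeup in the Cd14 gap was not tested.

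**Figure D2:**
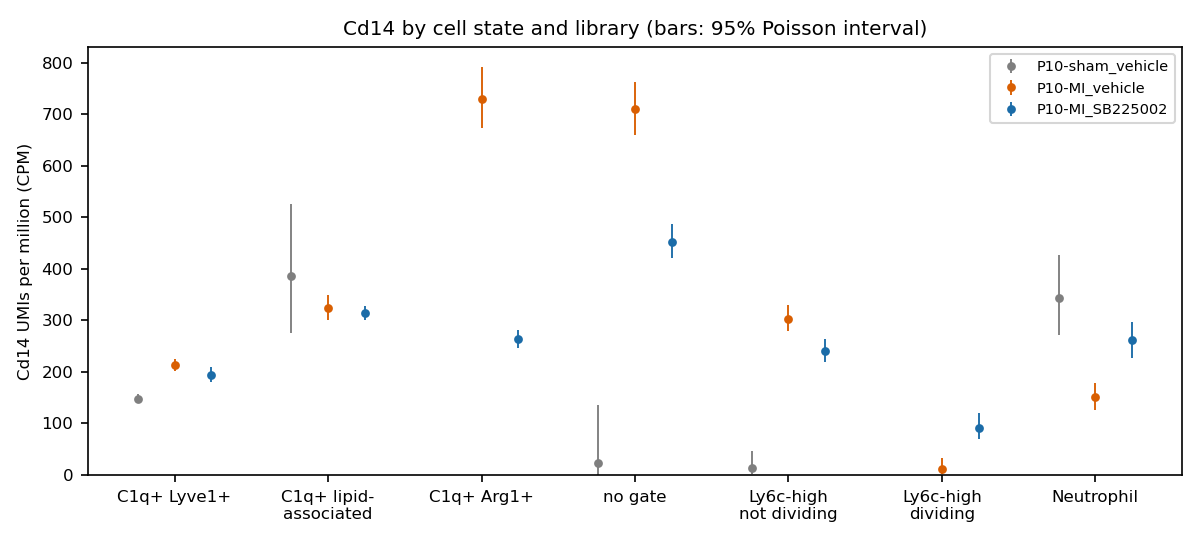
Cd14 in CPM (linear axis from 0) in 7 groups of cells, with 1 point per library and bars for the 95% Poisson interval; groups of under 10 cells are left out. Arg1+ C1q+ macrophages reached 730 CPM in P10-MI_vehicle and 264 CPM in P10-MI_SB225002, and dividing Ly6c-high monocytes stood at 11.3 and 92.2 CPM in the same libraries.

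In Ly6c-high monocytes, Cd14 was at 266 CPM in P10-MI_vehicle (244 to 289) and 207 CPM in P10-MI_SB225002 (190 to 225), and the 16 sham cells held 2 UMIs, 10.1 CPM (1.22 to 36.5). The log2 ratio of SB225002 over vehicle was -0.36 (-0.54 to -0.19) in all Ly6c-high monocytes, but it was 0.10 with the gate thresholds doubled, 0.15 as a mean of log-normalised values per cell and 0.23 without cells whose barcodes are shared, so that its direction is not settled. Dividing cells of the gate had less Cd14 than the rest in both infarct libraries. In P10-MI_vehicle they held 3 UMIs in 24 cells, 11.3 CPM (2.34 to 33.1), against 304 CPM in 245 cells that were not dividing. In P10-MI_SB225002 the values were 92.2 CPM (69.4 to 120) in 78 cells and 241 CPM in 334 cells. Of the 16 sham monocytes 3 were dividing, and the other 13 held both UMIs of Cd14.

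Neutrophils carried Cd14 in every library, at 343 CPM (272 to 426), 151 CPM (127 to 179) and 261 CPM (228 to 297). The MI vehicle library was the lowest of the 3, by 1.18 on the log2 scale against sham (log2 ratio -1.18, -1.59 to -0.76), where sham is 19 cells, and the treated infarct stood above it by 0.78 (0.47 to 1.10). Neutrophils had a median of 11777, 12831.5 and 5366 UMIs per cell. The part of depth or makeup in these gaps was not tested. Fibroblasts, with 1.92, 8.30 and 2.63 CPM, and endothelial cells, with 9.30, 11.1 and 22.4 CPM, lay below all 3 myeloid types in the infarct libraries.

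Ly96 (MD-2) is the secreted partner that binds lipopolysaccharide inside the Tlr4 complex, and Tlr4 is the receptor itself. Ly96 differed little between the libraries in C1q+ macrophages, with 57.3 CPM (54.0 to 60.9), 54.7 CPM (51.3 to 58.3) and 55.0 CPM (51.9 to 58.2). Tlr4 was at 67.1 CPM (63.4 to 70.8), 71.1 CPM (67.3 to 75.2) and 60.6 CPM (57.4 to 64.0). The treated library was the lowest for Tlr4, with a log2 ratio over MI vehicle of -0.23 (-0.34 to -0.12), and -0.12 when the C1q+ subsets were weighted alike.

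Among the 4 exclusive C1q+ subsets, both genes were highest in the Lyve1+ resident cells. Tlr4 was at 73.2, 83.1 and 81.3 CPM in resident cells and at 60.4, 60.9 and 58.5 CPM in the unnamed C1q+ cells. Ly96 was at 69.5, 62.6 and 68.0 CPM in the former and 53.5, 50.9 and 55.1 CPM in the latter. The intervals of these 6 ratios left out 0 in each library, so that the resident cells had more of the receptor and of Ly96 and, as given above, less Cd14. In dividing C1q+ cells, Tlr4 was at 68.4, 69.3 and 52.4 CPM, and the treated library was lower than MI vehicle by 0.41 on the log2 scale (log2 ratio -0.41, -0.65 to -0.16).

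Outside macrophages, Tlr4 and Ly96 parted. Neutrophils had 42.3, 39.6 and 49.9 CPM of Tlr4 but 21.2, 9.04 and 19.7 CPM of Ly96, and Ly96 in neutrophils was below C1q+ macrophages of the same library by 1.44, 2.60 and 1.48 on the log2 scale, with intervals that left out 0. Ly6c-high monocytes of the infarct libraries had 43.1 and 47.8 CPM of Tlr4, and 38.2 and 48.5 CPM of Ly96. Fibroblasts had 51.9 CPM of Tlr4 in sham (34.2 to 75.5, 27 UMIs), 27.0 CPM in MI vehicle (19.2 to 36.9) and 26.3 CPM in MI SB225002 (17.7 to 37.6). The MI over sham log2 ratio in fibroblasts was -0.94 (-1.69 to -0.18).

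Tlr2 recognises bacterial lipopeptides as a pair with Tlr1 or Tlr6. In C1q+ macrophages Tlr2 was at 54.4 CPM (51.1 to 57.8) in sham, 60.2 CPM (56.7 to 63.9) in MI vehicle and 69.9 CPM (66.4 to 73.5) in MI SB225002. The log2 ratios were 0.15 (0.02 to 0.27) for MI over sham and 0.21 (0.10 to 0.33) for SB225002 over vehicle. The second of these was 0.43 with cells thinned to 1000 UMIs. By subset, this log2 ratio was 0.36 (0.16 to 0.56) in the unnamed C1q+ cells and 0.38 (0.12 to 0.65) in dividing cells, against 0.02 (-0.24 to 0.27) in Lyve1+ resident cells and -0.03 (-0.29 to 0.24) in lipid-associated cells. The differences between these subsets were not tested.

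Monocytes of both infarct libraries, and neutrophils of the sham and treated libraries, held more Tlr2 than macrophages. Ly6c-high monocytes of the infarct libraries had 89.0 and 95.2 CPM, above C1q+ macrophages of the same library by 0.56 (0.33 to 0.79) and 0.45 (0.25 to 0.64). The 16 sham monocytes had 55.6 CPM, with a gap of 0.03 (-0.98 to 0.88). Neutrophils had 106, 73.5 and 106 CPM, and their gap to macrophages was 0.96 (0.33 to 1.53) in sham, 0.29 (-0.10 to 0.65) in MI vehicle and 0.60 (0.27 to 0.90) in MI SB225002. Tlr1 was at 30.3, 31.3 and 26.5 CPM in C1q+ macrophages, with a SB225002 over vehicle log2 ratio of -0.24 (-0.41 to -0.07), and at 1.38 to 1.92 CPM in fibroblasts. In endothelial cells Tlr1 had 0 UMIs in each library, which allows up to 13.9 CPM (3 UMIs) in sham, 11.1 CPM in MI vehicle and 4.19 CPM in MI SB225002.

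Tlr7 and Tlr8 detect single-stranded RNA in endosomes and lie next to each other on the X chromosome (build GRCm38, GENCODE vM21). Tlr7 spans chrX:167304929-167330558 and Tlr8 chrX:167242696-167264329, both on the minus strand, with 40599 bases between them. Tlr13, a receptor for bacterial ribosomal RNA, lies farther off at chrX:106143204-106160493 on the plus strand. Tlr7 and Tlr8 were the 2 of the 10 genes with the largest shift between the infarct libraries in macrophages.

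In C1q+ macrophages Tlr7 was at 67.3 CPM (63.6 to 71.1) in sham, 69.8 CPM (66.0 to 73.8) in MI vehicle and 48.1 CPM (45.3 to 51.1) in MI SB225002. The sham and MI vehicle libraries overlapped and the treated library lay below both, with a log2 ratio over MI vehicle of -0.54 (-0.66 to -0.42). Tlr8 was at 17.5 CPM (15.7 to 19.5), 22.3 CPM (20.2 to 24.6) and 15.9 CPM (14.2 to 17.6), so that MI vehicle was the highest. Its log2 ratios were 0.35 (0.13 to 0.56) for MI over sham and -0.49 (-0.70 to -0.28) for SB225002 over vehicle. The share of cells with a Tlr7 UMI, with each cell thinned to 1000 UMIs, was 6.53% (5.49% to 7.70%), 7.21% (6.20% to 8.32%) and 4.93% (4.20% to 5.75%), and 0% to 1.49% in lymphocytes. These lymphocytes include 16, 49 and 32 B cells, which before thinning held 1, 4 and 2 UMIs of Tlr7. Whether those UMIs were free RNA was not tested.

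Tlr7 was lower with SB225002 in each of the 4 subsets of C1q+ macrophages, although in dividing cells the interval spans 0. In Lyve1+ resident cells it was at 81.3 CPM in MI vehicle and 63.8 CPM in MI SB225002, in lipid-associated cells at 55.9 and 38.9 CPM, in the unnamed cells at 73.0 and 54.3 CPM, and in dividing cells at 52.6 and 43.8 CPM. The log2 ratios were -0.35 (-0.59 to -0.12), -0.52 (-0.84 to -0.20), -0.43 (-0.64 to -0.22) and -0.26 (-0.54 to 0.02). Lipid-associated cells, which have less Tlr7 than resident cells, were 216 of 2422 C1q+ cells in MI vehicle and 821 of 3202 in MI SB225002, and with the subsets weighted to the makeup of MI vehicle the ratio was -0.38 for Tlr7 and -0.41 for Tlr8.

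**Figure D3:**
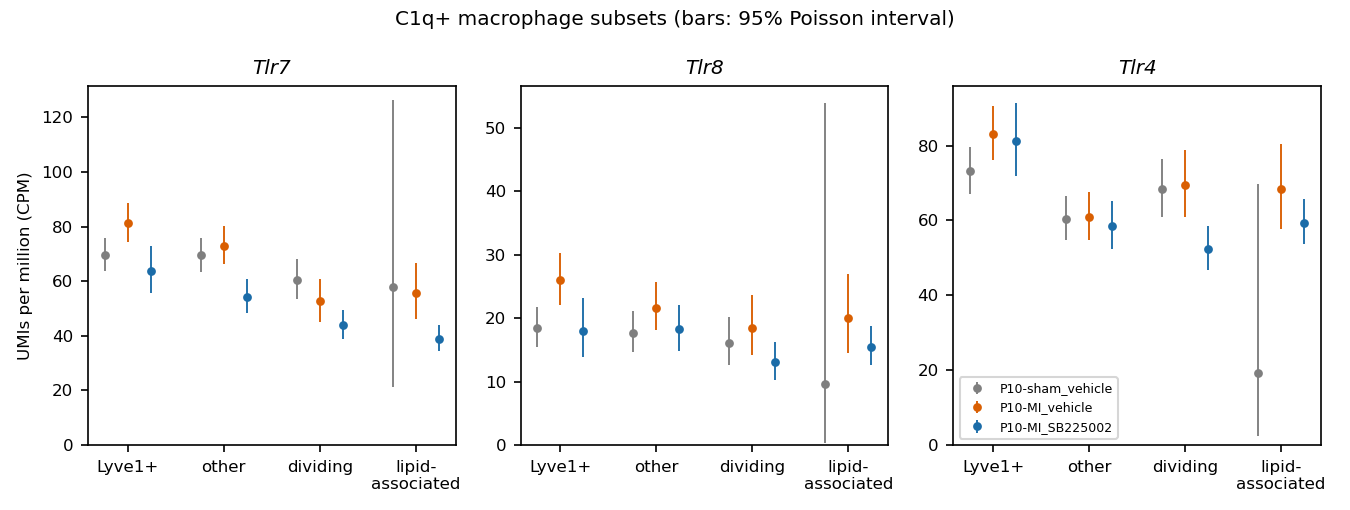
Tlr7, Tlr8 and Tlr4 in CPM (linear axes from 0) in the 4 exclusive C1q+ subsets, with 1 point per library and bars for the 95% Poisson interval. Tlr7 in P10-MI_SB225002 stood at 63.8, 54.3, 43.8 and 38.9 CPM from left to right, below P10-MI_vehicle in each subset.

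The same direction held in Ly6c-high monocytes. Tlr7 was at 36.8 CPM (29.0 to 46.0) in MI vehicle and 21.4 CPM (16.2 to 27.8) in MI SB225002, and Tlr8 at 12.6 CPM (8.22 to 18.4) and 6.88 CPM (4.08 to 10.9). In these cells Tlr7 lay below C1q+ macrophages in each library, by 0.93 on the log2 scale in MI vehicle and 1.17 in MI SB225002. The 16 sham monocytes held 3 UMIs of Tlr7, 15.2 CPM (3.12 to 44.3). Neutrophils had 0, 6 and 7 UMIs of Tlr7, 6.78 and 8.12 CPM in the infarct libraries, and the 0 of sham allows up to 12.7 CPM. Dividing Ly6c-high monocytes of the infarct libraries had 2 Tlr7 UMIs each.

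Tlr13 was found in all 3 myeloid types. It stood at 59.5, 66.9 and 66.2 CPM in C1q+ macrophages, 65.8 and 76.5 CPM in the Ly6c-high monocytes of the infarct libraries and 45.2 and 59.1 CPM in their neutrophils, but at 4.38 CPM or less in fibroblasts. Its log2 ratio in C1q+ macrophages was 0.17 (0.05 to 0.29) for MI over sham and -0.01 (-0.13 to 0.10) for SB225002 over vehicle.

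Of the receptors in endosomes, only Tlr8 had a start site entry in the promoter table used (RefSeq, GRCm38.p6) with 200 or more bases free of annotated exons; Tlr7 had no entry. The sequence of Tlr8 is shown because Tlr8 and its neighbour Tlr7 shifted together. It covers chrX:167264330-167264579 on the minus strand, the 250 bases before the start site, and runs 5′ to 3′:

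Tlr8: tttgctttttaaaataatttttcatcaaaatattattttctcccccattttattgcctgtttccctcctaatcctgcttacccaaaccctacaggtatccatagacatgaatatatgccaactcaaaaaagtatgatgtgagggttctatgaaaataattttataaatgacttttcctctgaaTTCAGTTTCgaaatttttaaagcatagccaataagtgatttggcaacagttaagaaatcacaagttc

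The capitals mark the 1 match, on the reverse strand, to GAAANNGAA, the core of interferon-stimulated response elements. Among 32851 promoter windows of the same length, 7.13% hold this core on either strand. The AP-1 motif TGACTCA and the PU.1 motif GAGGAAGT had 0 matches in this window.

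Tlr3 detects double-stranded RNA. In C1q+ macrophages as a whole it was at 8.34 CPM (7.09 to 9.75) in sham, 8.72 CPM (7.40 to 10.2) in MI vehicle and 7.73 CPM (6.61 to 8.99) in MI SB225002. Endothelial cells had 23.2 CPM (7.55 to 54.2, 5 UMIs), 48.3 CPM (25.7 to 82.6, 13 UMIs) and 43.3 CPM (29.4 to 61.5, 31 UMIs), above macrophages of the same library by 2.47 (1.53 to 3.29) and 2.49 (1.88 to 3.05) on the log2 scale in the infarct libraries. The sham gap was 1.48 (-0.16 to 2.73).

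The small set of interferon-responsive C1q+ macrophages (Isg15, Ifit1, Ifit3, Rsad2), with 14, 23 and 63 cells, also stood out for Tlr3. It was at 76.6 CPM (35.0 to 145) in sham, 72.2 CPM (36.0 to 129) in MI vehicle and 34.7 CPM (19.8 to 56.4) in MI SB225002, from 9, 11 and 16 UMIs. The fold over all C1q+ macrophages was 9.18, 8.28 and 4.49, and each interval left out 1. The ratio of SB225002 over vehicle within these cells, -1.06 (-2.25 to 0.20) on the log2 scale, spans 0. Myd88 in the same cells was at 68.1, 78.7 and 99.8 CPM, with an interval above all C1q+ macrophages in MI SB225002 alone (log2 ratio 1.07, 0.61 to 1.49). An RNA on the opposite strand, Gm45542, overlaps Tlr3, and the strand setting of the counts is not given in the sources used here.

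**Figure D4:**
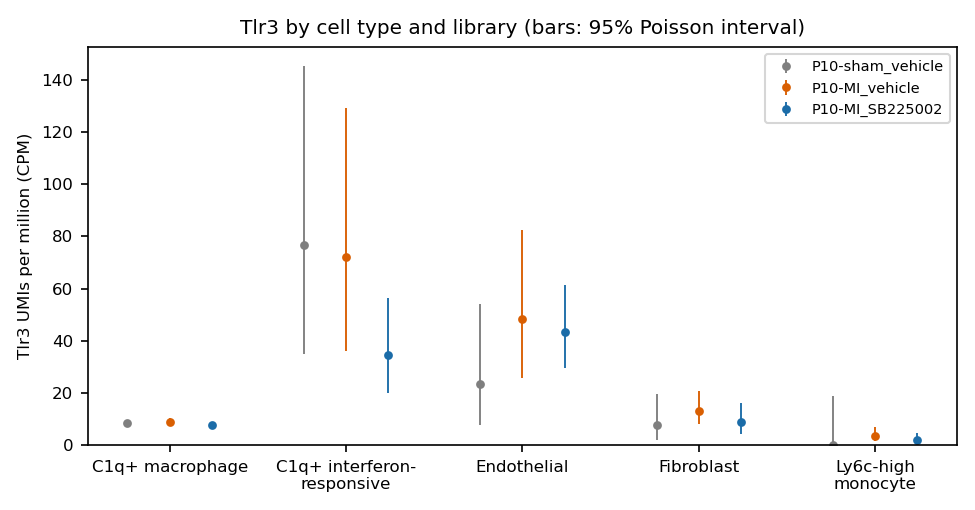
Tlr3 in CPM (linear axis from 0) in 5 groups of cells, with 1 point per library and bars for the 95% Poisson interval. Interferon-responsive C1q+ macrophages were at 76.6, 72.2 and 34.7 CPM and endothelial cells at 23.2, 48.3 and 43.3 CPM, against 7.73 to 8.72 CPM in all C1q+ macrophages.

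Myd88 is the cytoplasmic adaptor that links these receptors, Tlr3 apart, to the Irak kinases. In C1q+ macrophages it was at 51.7 CPM (48.6 to 55.1) in sham, 45.5 CPM (42.5 to 48.8) in MI vehicle and 47.6 CPM (44.8 to 50.6) in MI SB225002. Ly6c-high monocytes had 232 CPM (170 to 310, 46 UMIs), 131 CPM (116 to 148) and 119 CPM (106 to 133). They stood above C1q+ macrophages of their own library by 4.49-fold, 2.88-fold and 2.50-fold. Neutrophils had 102, 90.4 and 96.2 CPM, above macrophages by 1.96-fold, 1.99-fold and 2.02-fold. The order of monocytes over macrophages and of neutrophils over macrophages was thus the same in each library, with intervals that left out 1. In sham it rests on 16 monocytes and 19 neutrophils, under the 20 cells set for a level. Fibroblasts had 17.3, 23.5 and 18.4 CPM, below macrophages in each library. Myd88 in dividing Ly6c-high monocytes was at or above that in the others, with 166 CPM (121 to 223) and 126 CPM (110 to 143) in MI vehicle and 147 CPM (118 to 182) and 111 CPM (96.9 to 126) in MI SB225002. The log2 ratio of dividing to other cells was 0.40 (-0.10 to 0.87) in the former and 0.41 (0.04 to 0.77) in the latter.

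Myd88 lies at chr9:119335934-119341411 on the minus strand. It overlaps Slc22a14 on the same strand and Acaa1a on the opposite strand, so that its counts are uncertain where the 3 genes could share reads. Its promoter is shown for the contrast with Tlr8, since Myd88 was the only 1 of the 10 genes whose intervals lay above macrophages for both monocytes and neutrophils in all 3 libraries; Tlr2 was higher in both types in all 3 by its level, with 2 of the 6 intervals spanning 0. The sequence covers chr9:119340042-119340268 on the minus strand, the window before a RefSeq start site that lies inside the longer GENCODE span, with 23 annotated exon bases trimmed off and 227 left, and runs 5′ to 3′:

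Myd88: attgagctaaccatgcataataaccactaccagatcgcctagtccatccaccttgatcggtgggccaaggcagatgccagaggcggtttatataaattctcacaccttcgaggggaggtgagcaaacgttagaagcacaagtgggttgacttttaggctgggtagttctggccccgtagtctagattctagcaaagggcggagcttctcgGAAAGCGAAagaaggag

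The capitals mark the 1 forward match to the same GAAANNGAA core, which 6.46% of promoter windows cut to this length hold. TGACTCA and GAGGAAGT had 0 matches here as well. Both windows therefore hold the core once, although the 2 genes differ in their cell types. Tlr1 also had a window long enough to be read (245 bases), which is not shown. It held 0 matches to GAAANNGAA, 0 to TGACTCA and 1 to GAGGAAGT, which 2.36% of windows of that length hold.

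The 10 genes can be read against all genes. In C1q+ macrophages 0 of 10 were higher by at least 1.5-fold in MI over sham and 0 of 10 lower, where 8.14% of the 14063 genes that reached 20 UMIs in the 2 libraries together were higher and 4.84% lower. Their median log2 ratio was 0.07, and that of all genes -0.05. For SB225002 over vehicle 0 of 10 were higher and 0 of 10 lower, beside 5.61% and 10% of 14161 genes, with medians of -0.09 and -0.06. With the mitochondrial share held under 5% per cell, Tlr7 (-0.61) and Tlr8 (-0.63) passed 1.5-fold lower, and with cells thinned to 1000 UMIs Tlr7 did (-0.61). Without dividing cells Tlr7 stood at 74.0 CPM in MI vehicle and 49.8 CPM in MI SB225002, a gap no smaller than reported. Some other settings made the ratios smaller. Over the 11 alternatives they ran from -0.61 to -0.15 for Tlr7 and from -0.63 to -0.05 for Tlr8.

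**Figure D5:**
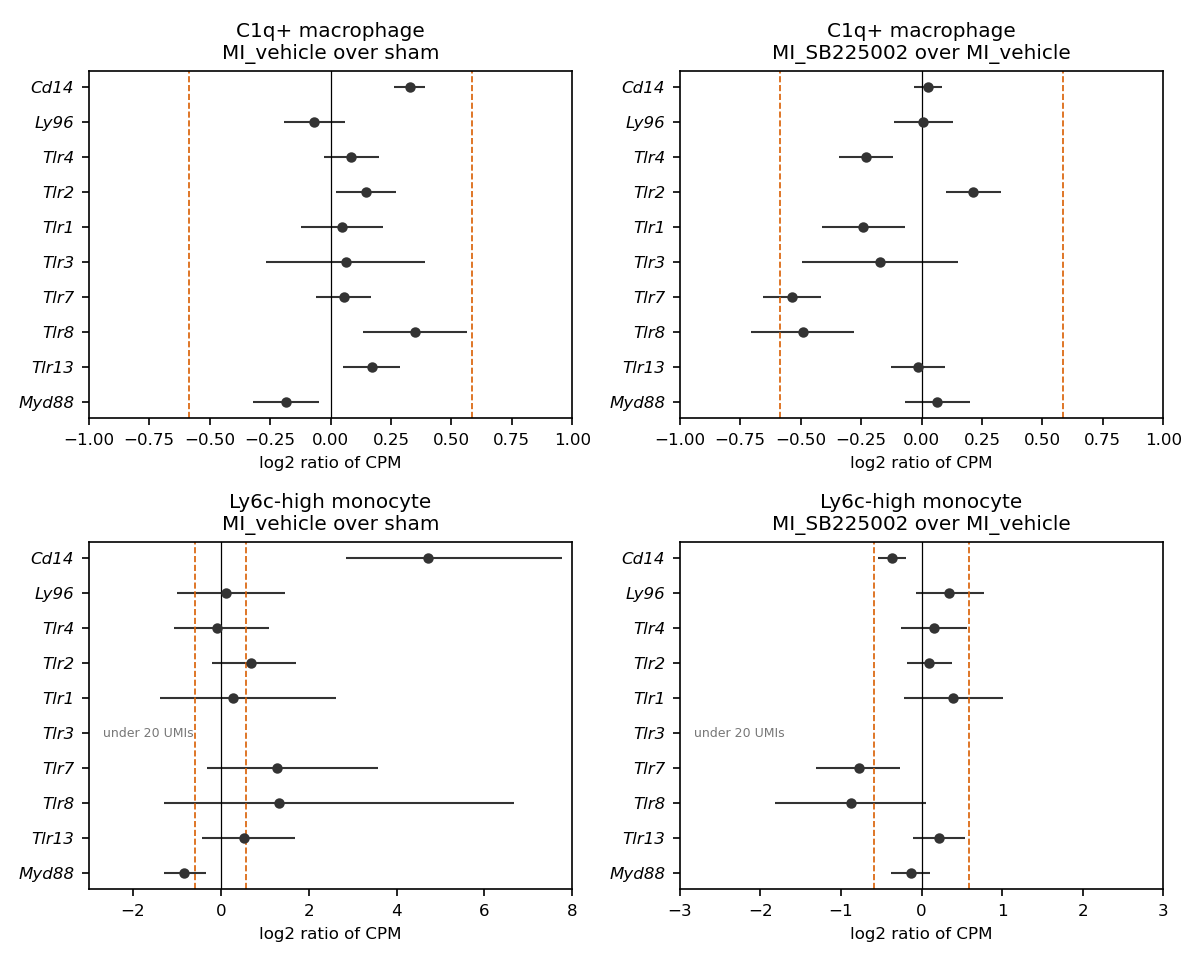
The log2 ratio of CPM for each of the 10 genes in C1q+ macrophages (top) and Ly6c-high monocytes (bottom), MI vehicle over sham (left) and SB225002 over vehicle (right), with points for the ratio, bars for its exact 95% interval and dashed lines at 1.5-fold; the horizontal scales differ between rows and, in the lower row, between columns. In C1q+ macrophages all 10 points lie between the dashed lines, and Tlr7 (-0.54) and Tlr8 (-0.49) are nearest to them for SB225002.

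In Ly6c-high monocytes, 9 of the 10 genes had at least 20 UMIs over both libraries of a comparison, and Tlr3 did not. For MI over sham 4 of 9 were higher, Cd14, Tlr2, Tlr7 and Tlr8, and 1 of 9 was lower, Myd88. This comparison rests on 16 sham cells, and 33.1% of 8288 genes were higher and 13.6% lower. Myd88 had a log2 ratio of -0.83 (-1.28 to -0.34), and Cd14 one of 4.72 (2.86 to 7.77) from 2 sham UMIs. The intervals of Tlr2 (0.68, -0.19 to 1.71), Tlr7 (1.28, -0.32 to 3.59) and Tlr8 (1.32, -1.29 to 6.67) spanned 0. S100a8, a granulocyte and monocyte gene, was at 29017 CPM in the sham monocytes and 10147 CPM in MI vehicle, and the part of such differences in makeup was not tested.

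For SB225002 over vehicle in the same cells 0 of 9 were higher and 2 of 9 lower, Tlr7 with -0.78 (-1.30 to -0.26) and Tlr8 with -0.87 (-1.82 to 0.05), beside 10.1% and 11% of 9787 genes. The other 7 lay between -0.36 for Cd14 and 0.39 for Tlr1. Tlr8 has 44 UMIs in the 2 libraries together and was no longer past 1.5-fold with the gate thresholds doubled (-0.36). Under other settings Tlr1 passed 1.5-fold higher, at 0.78 with a mitochondrial share under 5% and 1.22 without shared barcodes, as did Tlr4 (0.91) and Ly96 (0.61) with thinned cells.

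Genes used as a check of tissue handling also differed in this comparison. Of 11 such genes, among them Fos, Fosb, Jun, Egr1, Dusp1 and Hspa1a, 9 were lower by at least 1.5-fold in P10-MI_SB225002 than in P10-MI_vehicle, in C1q+ macrophages (median log2 ratio -0.90) and in Ly6c-high monocytes (-0.998) alike, and 0 of 11 were higher. Of all genes, 10% were lower and 5.61% higher in these macrophages, and 11% and 10.1% in these monocytes. The study that reported these data counts Fos and Jun among proinflammatory genes reduced by CXCR2 inhibition. The parts of handling and of treatment were not tested. For MI over sham 0 of 11 passed in either direction in C1q+ macrophages, and 5 were higher and 1 lower in Ly6c-high monocytes (median 0.51), where the sham side is 16 cells. Of all genes, 8.14% were higher and 4.84% lower in these macrophages, and 33.1% and 13.6% in these monocytes. The summed level of the 11 genes in C1q+ macrophages was 3592, 3666 and 2130 CPM, and the median mitochondrial share of all cells was 5.04%, 4.36% and 3.45%. The part of these differences in the values of Tlr7 and Tlr8 was not tested.

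Of 39 further genes of the pathway, 38 had enough UMIs in C1q+ macrophages. For MI over sham 1 was higher and 0 lower, beside 8.14% and 4.84% of all genes. The higher gene was Lbp, a lipopolysaccharide-binding protein, at 1.95 CPM in sham and 4.55 CPM in MI vehicle (log2 ratio 1.22, 0.64 to 1.82). For SB225002 over vehicle 3 were higher and 2 lower, beside 5.61% and 10% of all genes. Irf7, a transcription factor downstream of Tlr7 and itself induced by interferon, was at 22.7 and 46.3 CPM (1.03, 0.86 to 1.20), the opposite direction to Tlr7. Slc15a3, an endosomal transporter of peptides, was at 58.9 and 97.1 CPM (0.72, 0.61 to 0.83), and Lbp at 4.55 and 8.42 CPM (0.89, 0.50 to 1.28). The lower genes were the NF-kB inhibitors Tnfaip3 (-0.67, -0.92 to -0.43) and Nfkbia (-0.60, -0.66 to -0.53). As given above, 9 of 11 handling genes were lower in the same comparison, and the part of handling in these values was not tested.

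In Ly6c-high monocytes, 37 of the 39 had enough UMIs for SB225002 over vehicle, of which 3 were higher and 6 lower, beside 10.1% and 11% of all genes. Lgmn, a lysosomal protease that can cleave endosomal receptors, was at 278 and 552 CPM (0.99, 0.85 to 1.13). Irf7 was at 66.3 and 123 CPM (0.89, 0.60 to 1.19). Lower genes included Tnfaip3 (-0.94, -1.70 to -0.21), Nfkbia (-0.74, -0.87 to -0.61) and Ly86, the partner of Cd180 (-0.74, -0.94 to -0.55). Here too 9 of 11 handling genes were lower, and the part of handling was not tested. For MI over sham 15 of 35 were higher and 3 lower, again on 16 sham cells and beside 33.1% and 13.6% of all genes. The 5 largest with at least 50 UMIs were Irf7 (2.71, 0.83 to 5.77, from 2 sham UMIs), Slc15a3 (2.04, 0.79 to 3.67), Lbp (-1.82, -2.60 to -0.99), Lgmn (1.70, 1.0 to 2.49) and Pik3ap1, a receptor-linked adaptor of phosphoinositide kinase (1.46, 0.07 to 3.36).

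Endogenous molecules named as ligands of Tlr2 or Tlr4 were also counted. Of 8 such genes, 7 had enough UMIs in C1q+ macrophages, and 5 were higher for MI over sham and 2 for SB225002 over vehicle, with 0 lower. Of all genes, 8.14% were higher and 4.84% lower in the first comparison, and 5.61% and 10% in the second. In Ly6c-high monocytes 6 had enough UMIs, of which 1 was higher and 3 lower for MI over sham (median log2 ratio -0.52). That comparison rests on 16 sham cells, and 33.1% of all genes were higher and 13.6% lower. For SB225002 over vehicle 0 ligand genes passed in either direction, beside 10.1% and 11% of all genes. Fn1, whose fibronectin fragments are such ligands, was at 73.4, 436 and 1269 CPM in the 3 libraries, and Vcan, which encodes the proteoglycan versican, at 5.65, 28.0 and 45.8 CPM. S100a8 was at 496 and 1450 CPM in sham and MI vehicle macrophages, beside 42.3 and 91.3 CPM in the fibroblasts of these libraries, which are not known to make it.

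The other 5 receptors of the family were also counted. Over all cells, Tlr6, the alternative partner of Tlr2, had 218, 301 and 335 UMIs, more than the 176, 218 and 240 of Tlr3. Tlr5, the flagellin receptor, had 152, 129 and 124. Tlr9, which detects bacterial DNA, had 23, 26 and 31 UMIs, Tlr11 had 3, 6 and 5 and Tlr12 had 3, 5 and 6. Tlr6 lies 18467 bases from Tlr1 and their transcripts share 607 of the 3322 stretches of 31 bases in Tlr1. In the last 500 bases of the transcripts of Tlr1, 35 of 839 such stretches were shared, so that counts of Tlr1 and Tlr6 could mix to some extent.

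Across 25 sums of cell type and library, each of at least 20 cells, the genes with the most similar pattern were found by Pearson's r of log2(CPM + 10). These points share libraries, and cell type sets most of the pattern, so the values only describe it. Tlr13 was most like Clec4a2 and Fcgr3 (both 0.98) and C5ar1 (0.98), and Cd14 was most like Cfp (0.97), C5ar1 (0.96) and Ccr1 (0.96). Tlr2 was most like Lilr4b (0.97), Pgd (0.96) and C5ar1 (0.96), so that the complement receptor C5ar1 appeared beside 3 of the 10 genes. Tlr7 was closest to Abcc3 (0.96), Cx3cr1 (0.96) and Slc16a7 (0.95), and Tlr8 to Ticam2 (0.94), Clec4a3 (0.94) and Paqr7 (0.93).

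For Tlr1 the nearest were Gcnt1 (0.94), Il18 (0.93) and Tlr6 (0.92). Tlr3 was nearest to Kctd12b (0.95), Gja1 (0.93) and 4930402H24Rik (0.93). Tlr4 had the weakest best match, Lamp2 (0.87), followed by Il15 (0.87) and Ccl7 (0.85). Ly96 was nearest to the lysosomal genes Dnase2a (0.96) and Hexa (0.95) and to Aif1 (0.95), and Myd88 to Gapt (0.91), Glrx (0.91) and Igsf6 (0.91).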

How the data were processed

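Cells sorted from the infarct and border zones were made into 1 single-cell library per group (P10-sham_vehicle, P10-MI_vehicle, P10-MI_SB225002). The files the authors deposited hold unnormalised UMI counts for each gene symbol in each barcode (3390, 4511 and 5783 barcodes with 29323567, 32498608 and 34235864 UMIs). The smallest barcodes hold 502, 500 and 500 UMIs, so that barcodes with fewer UMIs had already been left out. Their processing notes name mm10 and Seurat 4.1.0; the aligner and counting settings are not given in the sources used here. Groups came from the sample titles.

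Kept cells had over 500 and under 30000 UMIs, over 500 and under 5000 genes and a mitochondrial share under 10%. A cell entered a gate by the UMIs of a marker list per 10000 UMIs, with thresholds from 4 to 32 by list, and cells of more than 1 lineage (130, 222 and 317) were set aside; no doublet caller was run. Counts were summed per gate and library and scaled to CPM. Intervals are exact (Poisson, binomial, conditional binomial). A ratio past 1.5-fold was counted where both libraries together held at least 20 UMIs. There was 1 library per group, so no test was made. Named pathway genes are at most 5 per comparison and gate with the largest ratios past 1.5-fold and at least 50 UMIs. For patterns, genes with at least 500 UMIs were compared. The alternatives were other cell filters, gates, scalings (TMM from edgeR 4.0.16 in R 4.3.3, median of ratios), per-cell means, thinning and count minimums. Ratios and intervals were tested on simulated data. Other steps used Python 3.11.15, numpy 2.4.6, scipy 1.17.1 and pandas 2.3.3. The 10 genes and all lists were chosen with earlier results of these data known. Genome positions come from GENCODE vM21 and promoters from RefSeq.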

Additional observations from a re-analysis of the deposited data

Results flagged for a closer look

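Cd14 passed 1.5-fold in opposite directions in different cells under the same comparison, with intervals that left out 0. For MI vehicle over sham, the log2 ratio was -1.18 in neutrophils (19 sham cells) and 4.72 in Ly6c-high monocytes (16 sham cells with 2 UMIs of Cd14). For SB225002 over MI vehicle, it was 0.78 in neutrophils and -0.65 in the cells that passed no gate. The difference between these cell groups was not tested, and each value rests on 1 library per group. Over 8 other settings the 4.72 ran from 0.68 to 5.54. As given above, the cells that passed no gate are not 1 kind in both libraries. In Ly6c-high monocytes 33.1% of all genes were higher and 13.6% lower for MI over sham. No such share was counted for neutrophils or for the cells that passed no gate.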

How the results depend on the processing

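In C1q+ macrophages the count of genes past 1.5-fold for MI over sham was 0 under all 11 alternatives. For SB225002 over vehicle it was 2 (both lower) with a mitochondrial share under 5% and 1 with cells thinned to 1000 UMIs, and 0 under the other 9. In Ly6c-high monocytes the count for MI over sham, 5 as reported, was 2 with mean log-normalised values per cell, 3 with a minimum of 100 UMIs and 0 with thinned cells, where 1 gene kept enough UMIs; it was 6 without shared barcodes, where Tlr4 (0.93) and Tlr13 (0.70) passed higher and Ly96 (-1.33) lower, Tlr4 and Ly96 with the other sign than reported. Tlr13 (0.60) also passed with a mitochondrial share under 5%. The count for SB225002 over vehicle, 2 as reported, was 1 with doubled gates, 1 with a minimum of 100 UMIs and 0 with mean log-normalised values. It was 3 with a mitochondrial share under 5% (Tlr1 higher) and 3 with thinned cells (Tlr4 and Ly96 higher), and without shared barcodes Tlr1 was higher in place of Tlr8 lower. The cause was not tested, beyond the fewer genes left by the minimum and by thinning. Shares of all genes past 1.5-fold are given for the reported settings alone. In Ly6c-high monocytes 33.1% were higher and 13.6% lower for MI over sham, and 10.1% and 11% for SB225002 over vehicle. In C1q+ macrophages these shares were 8.14% and 4.84%, and 5.61% and 10%. The counts under the alternatives therefore have no share of all genes beside them. Of 381 values of single genes under the alternatives, 348 lay within the interval of the reported ratio and 33 did not, and 33 had the other sign, 0 of them of a ratio reported as past 1.5-fold. Weighting the C1q+ subsets alike and leaving out cells with shared barcodes were chosen after seeing the data; without shared barcodes Tlr7 in C1q+ macrophages was at -0.51 and in monocytes at -1.14. With 16 and 19 sham cells, monocytes and neutrophils limit what sham can show. No paired analysis was possible because each group has 1 library.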

Other observations

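Ly6c-low monocytes (Ace, Ear2, Treml4, Adgre4, Eno3, Spn) numbered 7, 15 and 22 cells and 15468, 40736 and 45332 UMIs, too few for a level in sham or MI vehicle. Tlr13 had 2, 8 and 2 UMIs there and Tlr7 had 2, 3 and 3. In MI SB225002 the level of Tlr13 was 44.1 CPM (5.34 to 159), an interval that holds the 66.2 CPM of C1q+ macrophages in that library.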
